A study of Mus musculus with 9 samples.

Results

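Interferon-stimulated genes are the genes that cells switch on when they sense interferons, and 34 of them were followed here in the lungs of mice breathing cigarette smoke, the aerosol of a heated tobacco product, or air. A probe was taken for a gene when its RefSeq accession belonged to that gene, and where a gene had several probes the one with the highest mean over the 9 arrays was kept. All 34 genes were found among 22911 genes with a symbol on the array, each stood above background on all arrays that measured it, and all were among the 16590 genes tested. The set holds 25 genes known mainly as targets of type I interferon and 9 known mainly as targets of interferon-gamma.

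The arrays measured total RNA of whole lung from male C57BL/6J mice that were 12 weeks old at the start. The 3 groups, with 3 arrays each, breathed fresh air, cigarette smoke at 3.5% (CS) or IQOS aerosol at 3.5% for 6 months. IQOS is a device that heats a tobacco stick instead of burning it. Nothing in the labels says that the 3 arrays of a group came from separate animals, so the p-values below rest on array-to-array spread alone, which may be technical. Whole lung is a mixture, and in it fewer cells of a type and less RNA per cell cannot be told apart.

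Values are log2 signals relative to the 75th percentile of each array, which lay between 973.3 and 1098 units, and 64.3% to 68.8% of probes were well above background. All 12 lung epithelial markers were tested and 1 of them, Sftpd, was called higher in CS (summed level of the 12 2080 to 2107 times the percentile in air, 2160 to 2288 in CS and 1949 to 2152 in IQOS). Slide 1 carried the arrays for air and CS and slide 2 those for IQOS, which means that IQOS exposure and its slide cannot be told apart. All CS arrays and air 3 lay in row 2 of their slide, and air 1, air 2 and all IQOS arrays in row 1. Row and exposure are thus hard to separate in CS against air, also on slide 1 alone. In IQOS against CS they cannot be told apart. A gene is called changed at a Benjamini-Hochberg adjusted p under 0.05 in limma, adjusted over all 37258 probes tested. At gene level this called 5.59% of all genes higher and 6.12% lower in CS against air, 1.99% higher and 0.886% lower in IQOS against air, and 4.94% higher and 5.17% lower in IQOS against CS.

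Type I interferons bind a receptor whose signal reaches the nucleus with STAT2 and IRF9 and ends at the interferon-stimulated response element (ISRE). Interferon-gamma, made mainly by T cells and natural killer cells, acts through the gamma-activated site (GAS). Many genes answer both, and in the lung they act against viruses and bacteria and raise antigen presentation.

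The promoters below belong to the genes that the results turn on or that contrast with them, and are shown because they differ in which binding letters of these pathways they carry, if any. Each runs from 250 bases before to 50 bases after a RefSeq transcription start, 5′ to 3′ along the gene, in build GRCm38.p6. Their places are chr11:53769764-53770063 on the plus strand for Irf1, chr3:142620413-142620712 on the plus strand for Gbp2, chr4:156200769-156201068 on the minus strand for Isg15, chr19:34583279-34583578 on the plus strand for Ifit3, chr19:34550444-34550743 on the plus strand for Ifit2 and chr5:114922990-114923289 on the plus strand for Oasl1. For Irf1 and Ifit2, which have 2 windows each, the window with the most ISRE and GAS matches is shown. The other window of each has neither. Capitals mark GAAANNGAAA on either strand (the ISRE) or TTCNNNGAA (the GAS, which reads the same on both strands); no ISRE and GAS overlap in these windows.
Irf1: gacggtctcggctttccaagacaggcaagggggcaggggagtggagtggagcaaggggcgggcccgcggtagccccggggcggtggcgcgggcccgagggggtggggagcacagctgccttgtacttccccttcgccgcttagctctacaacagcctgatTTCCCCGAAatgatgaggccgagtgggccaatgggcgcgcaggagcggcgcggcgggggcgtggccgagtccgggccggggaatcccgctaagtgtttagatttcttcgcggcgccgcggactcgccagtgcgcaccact
Gbp2: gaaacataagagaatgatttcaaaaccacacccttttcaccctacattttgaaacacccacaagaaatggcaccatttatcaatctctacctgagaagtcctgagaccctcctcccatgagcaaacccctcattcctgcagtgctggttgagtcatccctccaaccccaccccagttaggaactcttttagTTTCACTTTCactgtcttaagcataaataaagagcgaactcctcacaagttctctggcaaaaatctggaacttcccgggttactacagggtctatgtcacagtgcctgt
Isg15: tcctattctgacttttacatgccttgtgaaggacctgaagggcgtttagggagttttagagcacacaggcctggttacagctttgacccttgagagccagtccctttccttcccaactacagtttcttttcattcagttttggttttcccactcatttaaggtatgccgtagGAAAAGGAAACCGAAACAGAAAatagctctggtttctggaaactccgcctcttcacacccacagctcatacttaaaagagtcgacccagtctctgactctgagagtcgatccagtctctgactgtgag
Ifit3: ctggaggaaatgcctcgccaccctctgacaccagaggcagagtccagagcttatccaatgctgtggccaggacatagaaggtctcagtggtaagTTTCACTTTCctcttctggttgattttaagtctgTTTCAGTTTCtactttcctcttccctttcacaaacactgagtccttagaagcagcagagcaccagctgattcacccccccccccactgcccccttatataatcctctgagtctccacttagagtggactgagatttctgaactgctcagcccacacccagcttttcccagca
Ifit2: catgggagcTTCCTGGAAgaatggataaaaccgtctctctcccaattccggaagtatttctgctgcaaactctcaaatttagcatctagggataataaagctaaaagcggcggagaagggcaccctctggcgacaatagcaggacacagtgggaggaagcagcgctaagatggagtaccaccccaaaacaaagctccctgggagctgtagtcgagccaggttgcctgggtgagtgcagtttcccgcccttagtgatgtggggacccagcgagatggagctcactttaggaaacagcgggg
Oasl1: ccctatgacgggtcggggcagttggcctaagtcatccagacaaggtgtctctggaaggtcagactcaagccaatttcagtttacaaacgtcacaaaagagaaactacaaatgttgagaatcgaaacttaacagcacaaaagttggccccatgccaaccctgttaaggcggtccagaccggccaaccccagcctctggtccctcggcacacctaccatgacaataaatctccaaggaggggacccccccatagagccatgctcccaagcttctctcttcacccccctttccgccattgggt
Irf1, called higher in CS, has 1 GAS, TTCCCCGAA, 90 to 82 bases upstream and no ISRE match. Isg15 has 3 overlapping ISRE matches between 78 and 57 bases upstream, Ifit3 has 2, and Gbp2 has 1. Ifit2, called lower in CS, has a GAS match 241 to 233 bases upstream and no ISRE in the shown window. Oasl1, called higher in CS, has neither set of letters. A window was at hand for 28 of the 34 genes. An ISRE match stood in 10 of 19 type I genes (52.6%) and 3 of 9 interferon-gamma genes (33.3%), against 3.99% of the 27025 genes with a window. A GAS match stood in 4 of 19 type I genes (21.1%) and 2 of 9 interferon-gamma genes (22.2%), against 9.55% of all. A match describes letters, not binding.

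In all, 3 of the 34 genes passed the test in CS against air. Irf1 and Oasl1 were higher and Ifit2 was lower, so 2 of 34 were called higher (5.59% of all genes) and 1 of 34 lower (6.12% of all genes). No member was called in IQOS against air or in IQOS against CS by limma, where the smallest adjusted p were 0.0702 (Ifit2) and 0.0615 (Herc6). At an unadjusted p under 0.05 the counts were 10 of 34 for CS against air (31.2% of all genes), 4 of 34 for IQOS against air (20.3%) and 7 of 34 for IQOS against CS (29.3%). In each comparison that share of the members was below the share of all genes. The median change over the members was 0.20 on the log2 scale in CS against air, 0.00 in IQOS against air and -0.13 in IQOS against CS, and over all genes -0.02, -0.01 and 0.02. The comparisons with air share the same 3 air arrays.

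Groups can also be compared by whether their arrays overlap. In 7 of 34 genes every CS array lay above every air array (17.2% of all genes), and in 2 every CS array lay below (21% of all genes). For IQOS against air the counts were 6 above (13%) and 2 below (15.1%). For IQOS against CS they were 3 above (18.5%) and 6 below (16.8%).

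**Figure D1:**
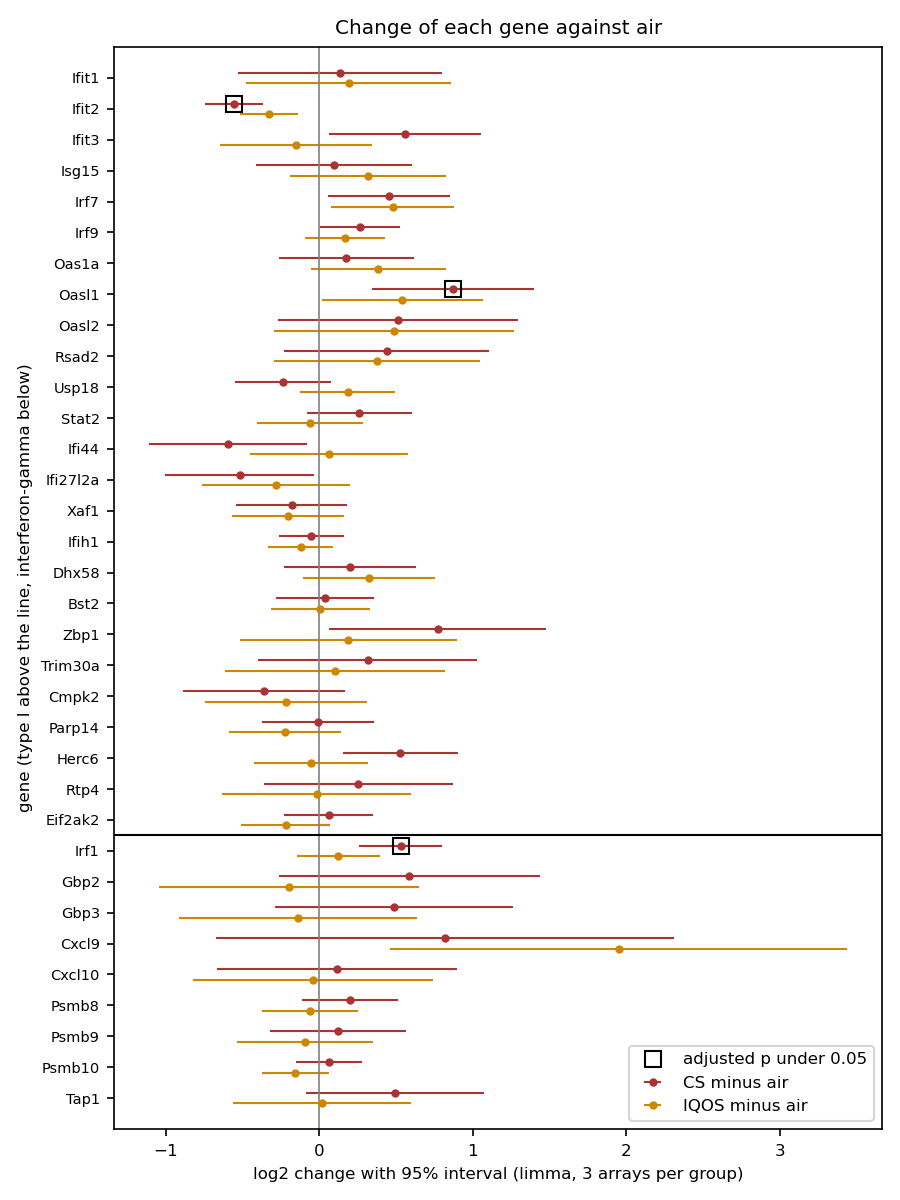
Change of each of the 34 genes against air on the log2 scale, with 95% intervals from limma, for CS (red) and IQOS (orange); squares mark adjusted p under 0.05. Most intervals cross 0, Irf1 and Oasl1 lie above it and Ifit2 below it in CS, and no IQOS value carries a square.

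Among the transcription factors, Irf1 rose in CS. IRF1 is induced directly by interferon-gamma and by inflammatory signals and drives antigen presentation genes. Its signal was 4.71, 4.58 and 4.33 on the air arrays, 5.0, 5.24 and 4.98 on the CS arrays, and 4.62, 4.79 and 4.58 on the IQOS arrays. The CS arrays all lay above the air and the IQOS arrays, while IQOS and air overlapped. The change in CS against air was 0.53 ± 0.12 (SE, n = 3 arrays per group; 95% interval 0.26 to 0.80), 1.45-fold, with a limma adjusted p of 0.0313. IQOS against air gave 0.12 (adjusted p = 0.572 in limma), and IQOS against CS gave -0.41 (adjusted p = 0.0668 in limma). In a fit of the 6 arrays of slide 1 alone the adjusted p of Irf1 was 0.0547 (limma). The call for Irf1 was also lost when any 1 air or CS array was left out, with adjusted p up to 0.0959 and changes of 0.43 to 0.62.

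Irf7, the factor that amplifies type I interferon production, was measured at 2.85, 2.89 and 3.03 in air, at 3.05, 3.67 and 3.41 in CS, and at 3.39, 3.17 and 3.65 in IQOS. All CS and all IQOS arrays lay above all air arrays, by a mean of 0.45 and 0.48, and neither passed the test (limma adjusted p = 0.131 and 0.163). IRF9 and STAT2 act together at the ISRE. Irf9 gave 0.27 in CS and 0.17 in IQOS, and Stat2 0.26 and -0.06, against air, none of them called.

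The Ifit genes, whose proteins bind viral RNA and block its translation, went different ways. Ifit2 fell in CS. Its signal was -1.01, -1.19 and -1.02 in air, -1.74, -1.52 and -1.63 in CS, and -1.41, -1.47 and -1.32 in IQOS. The 3 groups did not overlap, with CS lowest and IQOS between. Ifit2 was 1.47-fold lower in CS than in air, a log2 change of -0.56 ± 0.08 (SE, n = 3 per group; 95% interval -0.74 to -0.37; limma adjusted p = 0.0101). In IQOS it was -0.33 from air (limma adjusted p = 0.0702) and 0.23 from CS (adjusted p = 0.117). The call in CS held with each of the 9 arrays left out, with adjusted p from 0.0162 to 0.0487, and the spread of this gene within groups was the smallest among the 34 (SD 0.095). On slide 1 alone it held as well (adjusted p = 0.0245 in limma). It was lost in 1 alternative, with array row as a covariate (limma adjusted p = 0.0809).

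Ifit3 lay on the other side. It was 1.89, 1.37 and 2.02 in air, 2.09, 2.53 and 2.33 in CS, and 1.33, 1.54 and 1.95 in IQOS. The CS arrays were above all others, and the difference of 0.56 from air missed the threshold (limma adjusted p = 0.134), as did that of -0.71 between IQOS and CS (adjusted p = 0.0765). Ifit1 spread widely within groups (SD 0.40) and differed from air by 0.14 in CS and 0.19 in IQOS, neither called.

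The OAS family makes the second messenger that activates RNase L, though some of its members act by other routes. Oasl1, which in the mouse restrains translation of Irf7, rose in CS. It was -0.30, -0.43 and -0.02 in air, 0.48, 1.06 and 0.31 in CS, and 0.23, 0.00 and 0.63 in IQOS. Every CS and every IQOS array lay above the air arrays. The change in CS was 0.87 ± 0.23 (SE, n = 3 per group; 95% interval 0.35 to 1.40), 1.83-fold, with a limma adjusted p of 0.0492, just inside the threshold. In IQOS it was 0.54 (limma adjusted p = 0.218). Leaving out any array but IQOS 3 lost the call for Oasl1, with adjusted p up to 0.142, and on slide 1 alone its limma adjusted p was 0.0614. Oasl2 gave 0.52 in CS and 0.49 in IQOS, and Oas1a 0.18 and 0.39, none called. On CS 1 Oasl2 was below every air array, and on CS 2 and CS 3 above; without CS 1 its change in CS was 0.94 and was called (limma adjusted p = 0.038).

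Sensors of foreign nucleic acid are themselves induced by interferon. Zbp1, which senses Z-form nucleic acid and can start necroptosis, was -1.52, -1.91 and -1.57 in air, -1.38, -0.28 and -1.01 in CS, and -1.43, -1.93 and -1.06 in IQOS. All CS arrays were above air, by 0.77 on average and with CS 2 far above its group, and the difference was not called (limma adjusted p = 0.143). Dhx58 gave 0.20 in CS and 0.32 in IQOS, Ifih1 (MDA5) -0.05 and -0.12, and Eif2ak2 (the kinase PKR) 0.06 and -0.22, against air, none called.

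The genes of the ISG15 system, a ubiquitin-like tag, gave mixed values. Herc6, the mouse ligase for ISG15, was -2.04, -2.20 and -2.12 in air, -1.22, -1.64 and -1.91 in CS, and -2.08, -2.31 and -2.12 in IQOS. CS lay above both other groups, by 0.53 over air (limma adjusted p = 0.0748) and with IQOS 0.58 lower than CS on average (adjusted p = 0.0615), so neither passed. Without CS 3 both did, at 0.69 (limma adjusted p = 0.0399) and -0.74 (0.0362). Usp18, which removes ISG15 and dampens the type I receptor, was 0.82, 0.76 and 0.77 in air, 0.71, 0.69 and 0.25 in CS, and 0.81, 0.96 and 1.14 in IQOS. Here CS lay below both other groups, by -0.23 against air (adjusted p = 0.29 in limma), and IQOS against CS gave 0.42 (adjusted p = 0.0896). Isg15 itself gave 0.10 in CS and 0.32 in IQOS, neither called.

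The other 9 type I genes include blockers of virus assembly and release (Rsad2 and Bst2), the Rsad2 neighbour Cmpk2, the apoptosis factor Xaf1, and Ifi44, Ifi27l2a, Rtp4, Parp14 and Trim30a. None was called in any comparison. Their changes in CS against air ran from -0.59 (Ifi44) to 0.44 (Rsad2), and in IQOS against air from -0.28 (Ifi27l2a) to 0.38 (Rsad2, whose second probe gave -0.14). Ifi44 was -1.89 and -1.88 on CS 1 and CS 3 but -1.08 on CS 2, which lay within the air range of -1.15 to -0.90; without CS 2 its change was -0.86 and was called (limma adjusted p = 0.0331), as was its difference of 0.92 between IQOS and CS (0.0238). Rsad2 was called higher in CS when CS 1 was left out (0.79, limma adjusted p = 0.049). With all arrays its second probe gave 0.17 in CS against air (limma adjusted p = 0.697).

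**Figure D2:**
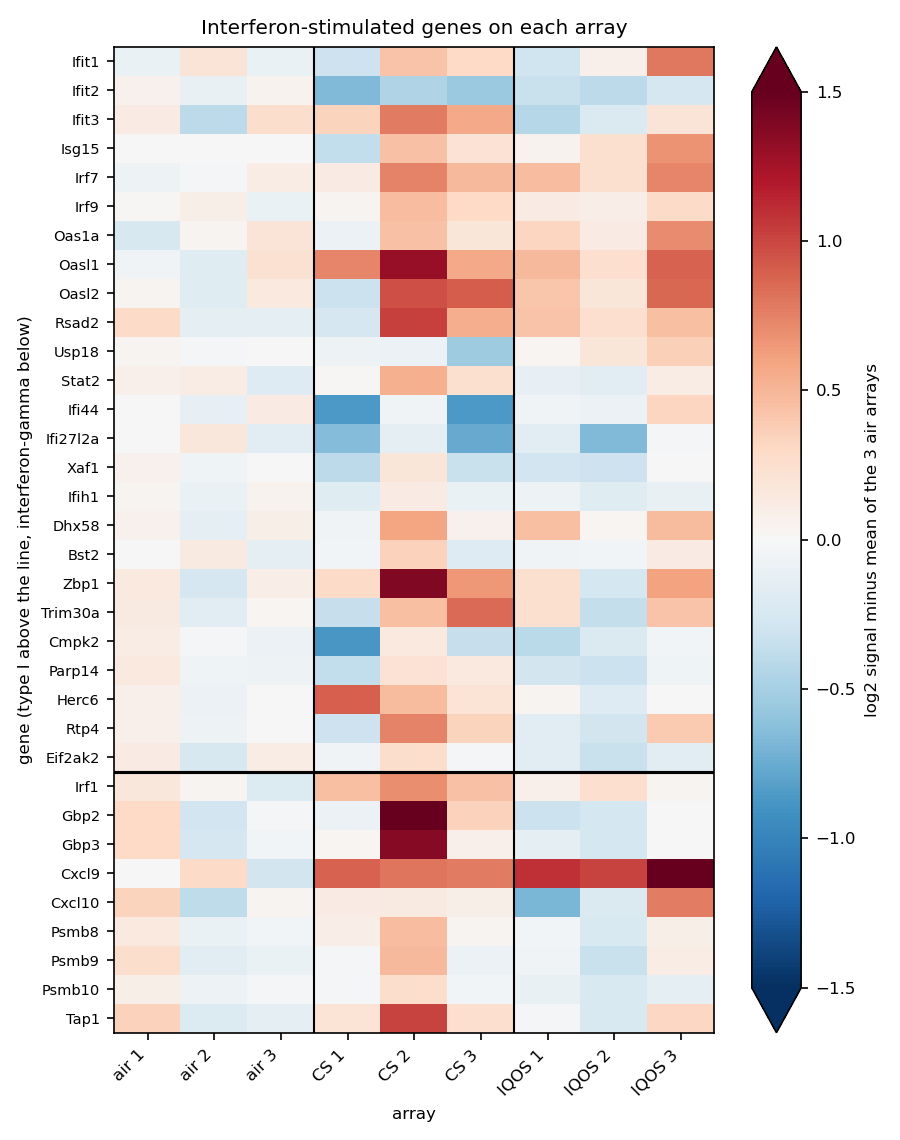
Log2 signal of each of the 34 genes on each of the 9 arrays, minus the mean of the 3 air arrays (red higher, blue lower); colours stop at 1.5 either way. The columns of CS 2 and IQOS 3 are redder than the others of their groups, and the row of Ifit2 is blue in all CS and IQOS arrays.

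Interferon-gamma genes other than Irf1 were not called in any comparison. Gbp2 and Gbp3, guanylate-binding proteins that attack vacuoles of intracellular microbes, differed through 1 array. Gbp2 was 2.51, 1.93 and 2.19 in air, 2.12, 3.72 and 2.55 in CS, and 1.88, 1.94 and 2.21 in IQOS. CS 2 stood above all other arrays, and CS 1 lay within the air range. The change in CS was 0.59 ± 0.37 (SE, n = 3 per group; limma adjusted p = 0.328). Gbp3 had the same shape, with 2.87 on CS 2 and 1.24 to 1.80 on the other arrays.

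Cxcl9 and Cxcl10 encode chemokines that draw T cells through CXCR3. Cxcl9 was among the dim probes, at -4.98, -4.70 and -5.26 in air, -4.10, -4.18 and -4.20 in CS, and -3.88, -3.97 and -1.24 in IQOS. All exposed arrays lay above all air arrays, and IQOS 3 stood far above the rest. The mean difference from air was 0.82 ± 0.65 in CS and 1.95 ± 0.65 in IQOS (SE, n = 3 per group), with limma adjusted p of 0.44 and 0.136. Without IQOS 3 the IQOS change was smaller, 1.06, and was called (limma adjusted p = 0.0368), and the CS change of 0.82 was then called too (0.0207), as it was on slide 1 alone (0.0309). Cxcl10 gave 0.12 in CS and -0.04 in IQOS, and in IQOS it ran from -1.11 on IQOS 1 to 0.35 on IQOS 3.

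Psmb8, Psmb9 and Psmb10, the immunoproteasome subunits that replace constitutive ones to cut peptides for MHC class I, gave 0.20, 0.12 and 0.06 in CS against air and -0.06, -0.09 and -0.16 in IQOS against air. Tap1, which carries those peptides into the endoplasmic reticulum, gave 0.49 in CS, with 2.30 on CS 2 and 1.5 and 1.54 on the other CS arrays against 1.08 to 1.63 in air. The 3 constitutive subunits they replace had a median change of 0.04 in CS and -0.09 in IQOS, with none called.

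**Figure D3:**
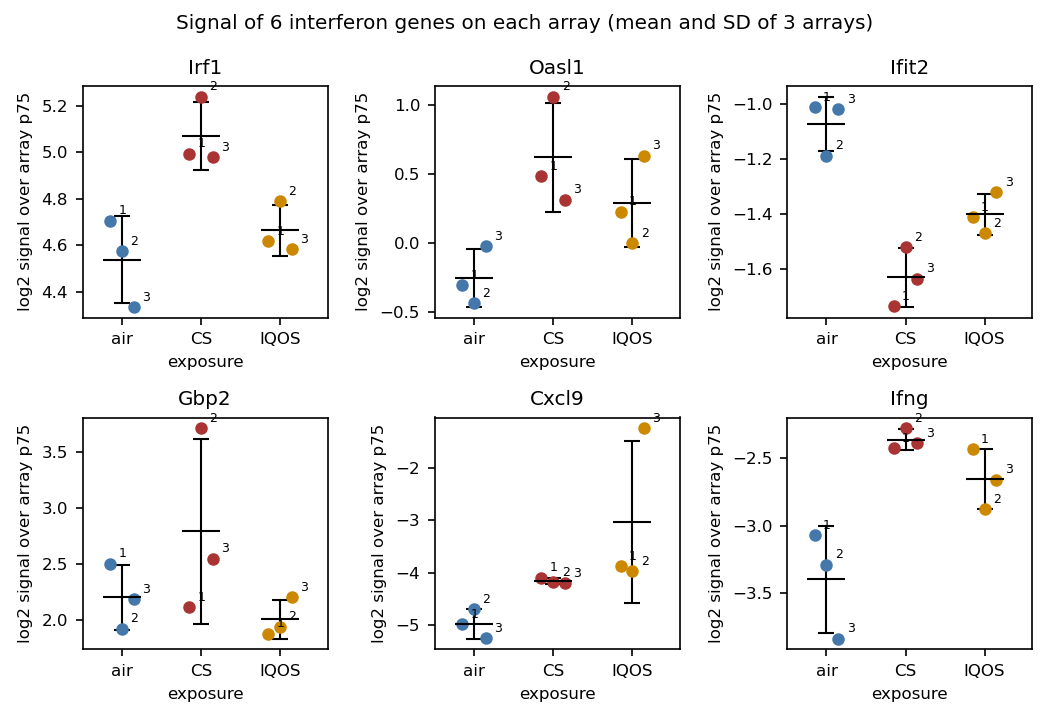
Log2 signal relative to the 75th percentile of each array for Irf1, Oasl1, Ifit2, Gbp2, Cxcl9 and Ifng; points are single arrays numbered within their group and bars are mean and SD of 3 arrays. The CS points of Irf1 and Ifng lie above the air points, those of Ifit2 below, and Gbp2 and Cxcl9 each have 1 array far above the rest.

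The type I and the interferon-gamma genes were compared by their medians. In CS against air the median was 0.18 for the type I genes, with 17 of 25 positive, and 0.49 for the interferon-gamma genes, with 9 of 9 positive, a difference of -0.31 between the classes. In IQOS against air it was 0.06 (14 of 25 positive) and -0.06 (3 of 9 positive), a difference of 0.12. In IQOS against CS it was -0.03 and -0.26, a difference of 0.23. Over all genes the medians were -0.02, -0.01 and 0.02. The class difference had an SD of 0.18 between single arrays of a group. That SD is not a standard error of the group values above, and no test was made over the chosen genes. Much of the CS value came from 1 array: without CS 2 the medians were 0.01 for type I and 0.11 for interferon-gamma genes, a difference of -0.10.

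By array, the type I median relative to the air mean was -0.18 on CS 1, 0.45 on CS 2 and 0.21 on CS 3, and -0.05, -0.17 and 0.33 on IQOS 1 to 3. The interferon-gamma median was 0.09, 0.70 and 0.09 on the CS arrays and -0.05, -0.23 and 0.09 on the IQOS arrays. In air it was 0.27, -0.17 and -0.05. CS 1 lay low for type I but not for interferon-gamma genes, and CS 2 was high for both. On air 1 the interferon-gamma median was above that of CS 1 and CS 3. On all 9 arrays the median over all genes stayed between -0.02 and 0.01.

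**Figure D4:**
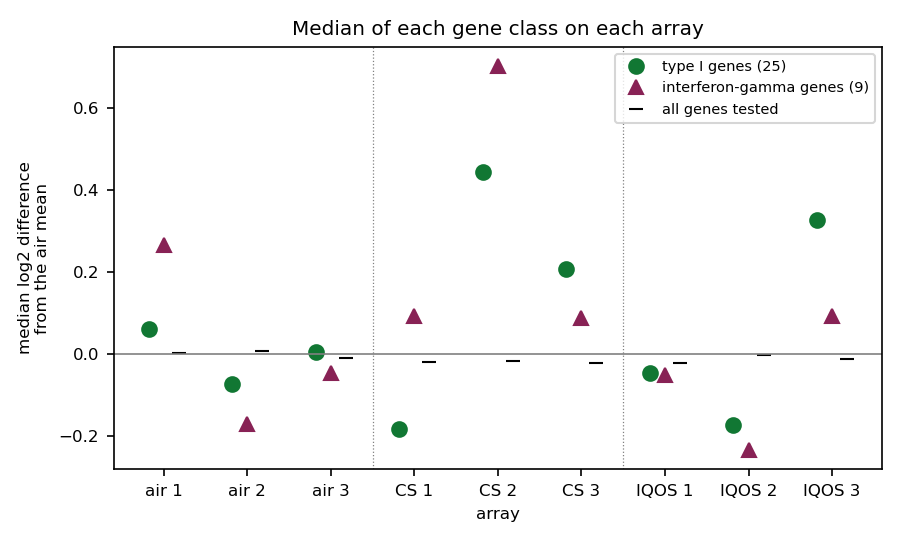
Median log2 difference from the air mean on each array for the 25 type I genes (circles), the 9 interferon-gamma genes (triangles) and all 16590 genes tested (dashes). CS 2 is highest for both classes (0.45 and 0.70), IQOS 3 is the highest IQOS array for both (0.33 and 0.09), and all genes stay near 0.

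Most members thus shared their highest array within CS and within IQOS. Among the CS arrays CS 2 was highest for 22 of 25 type I and 8 of 9 interferon-gamma genes, against 26.4% of all genes. CS 1 was lowest for 20 of 25 type I genes but only 3 of 9 interferon-gamma genes, against 37% of all genes. For 6 of 9 interferon-gamma genes CS 3 was lowest, against 39.2%. Among the IQOS arrays IQOS 3 was highest for 22 of 25 and 7 of 9, against 33.2% of all genes. Among the air arrays air 1 was highest for 8 of 9 interferon-gamma genes and 11 of 25 type I genes, against 29.9% of all genes. The SD within groups had a median of 0.28 over the 34 genes, 0.26 in the type I and 0.35 in the interferon-gamma class, against 0.12 over all genes, and 31 of 34 genes were above that value. It ran from 0.095 for Ifit2 to 0.91 for Cxcl9. Genes of 1 pathway measured on the same arrays are not independent of each other.

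Upstream of these targets stand the ligands, receptors and kinases. Of 16 such genes tested, with their inhibitors included, 4 rose in CS against air (5.59% of all genes) and none fell (6.12%), with a median of 0.17. Ifng, the interferon-gamma ligand, was -3.07, -3.29 and -3.84 in air, -2.42, -2.27 and -2.38 in CS, and -2.43, -2.88 and -2.66 in IQOS. All exposed arrays lay above air, by 1.04 ± 0.19 in CS (SE, n = 3 per group; limma adjusted p = 0.0195), 2.06-fold, and by 0.75 in IQOS, which missed the threshold (adjusted p = 0.0767). The call in CS was lost without CS 2 or CS 3 (adjusted p up to 0.0685).

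Socs3 and Socs1, feedback inhibitors of JAK kinases, rose by 1.77 (limma adjusted p = 0.0028) and 0.45 (0.0241), and Jak2, the kinase of the interferon-gamma receptor, by 0.35 (0.0392). Socs3 was 3.02, 3.13 and 2.71 in air, 4.87, 4.54 and 4.75 in CS, and 3.82, 3.34 and 3.46 in IQOS, with no overlap between the groups. Interleukin-6 and related cytokines also induce Socs3, and its call held with every array left out. Socs1 kept its call in 4 of 9 and Jak2 in 3 of 9 such fits. In IQOS against CS 6 of these 16 genes were lower (5.17% of all genes) and none higher (4.94%). Among the lower were Socs3 (-1.18), Jak2 (-0.40), Socs1 (-0.41) and Il10rb (-0.27), a shared receptor chain for interferon-lambda. Socs3 kept that call in 9 of 9 fits with 1 array left out, Jak2 and Socs1 in 4 and Il10rb in 1. In IQOS against air 1 gene rose (1.99% of all genes), Ifnl3, an interferon-lambda, by 0.42 (limma adjusted p = 0.031), a call kept in 2 of 9 such fits.

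Ifnb1, the interferon-beta gene, and Ifna4 and Ifne were too dim to test. Ifnb1 was above background on CS 1 alone (named after its values were seen), the CS array on which the type I genes were lowest.

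Among 15 sensors and adaptors of nucleic acid sensing, 2 rose (5.59% of all genes) and 1 fell (6.12%) in CS. Myd88, the adaptor of most Toll-like receptors, rose by 0.67 (limma adjusted p = 0.0303), and Sting1, the adaptor for cytosolic DNA, by 0.58 (0.041). Tlr3, the endosomal receptor for double-stranded RNA, fell by 0.56 (0.0471), and that call was lost with every array left out in turn. Myd88 kept its call in 4 of 9 and Sting1 in 2 of 9 such fits. In IQOS against air none of the 15 passed in limma. At an unadjusted p under 0.05 there were 2 (20.3% of all genes). Sting1 was lower in IQOS than in CS at -0.70 (limma adjusted p = 0.0242), a call kept in 5 of 9 fits.

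A wider list of 31 other type I targets had a median change of 0.01 in CS, with 16 positive and 15 negative. Of them 1 was called higher (5.59% of all genes) and 1 lower (6.12%). Ifitm1, which blocks virus entry at membranes, rose 2.98-fold (1.58, limma adjusted p = 0.0266), and Slfn9 fell by 0.25 (0.0462). Slfn9 was higher in IQOS than in CS by 0.51 (limma adjusted p = 0.00577). Slfn9 has more than 1 probe, and with the mean of its probes that value was 0.099 (limma adjusted p = 0.606) and its CS change -0.036 (0.868), so neither was called. Without air 1, air 2, air 3 or CS 2 the Ifitm1 call was lost. Slfn9 kept its call in CS in 2 of 9 such fits.

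A wider list of 24 other interferon-gamma targets had a median of 0.42 in CS, with 22 of 24 positive. Of them 2 were called higher (5.59% of all genes), Socs1 and Cd274. Socs1 is shared with the list of ligands, receptors and kinases above, so its calls are counted in both. Cd274 encodes PD-L1, the ligand that restrains T cells. Its signal was 0.86, 0.53 and 0.57 in air, 1.24, 2.26 and 1.35 in CS, and 0.72, 0.63 and 0.82 in IQOS. Every CS array lay above air and IQOS, which overlapped, and the change was 0.97 (limma adjusted p = 0.0467), a call kept in 2 of 9 fits with 1 array left out. In IQOS against air the median was -0.05 with none called in limma and none at an unadjusted p under 0.05 (20.3% of all genes). In IQOS against CS it was -0.43, with 23 of 24 negative and 1 called lower (Socs1, against 5.17% of all genes). As among the members, the mean of this list stood at 1.13 on CS 2 and at 0.12 and 0.17 on the other CS arrays, both below the 0.25 on air 1.

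With array row as a covariate, of the genes named here from the wider lists Ifng and Socs3 kept their calls in CS against air and no other call was kept. With the mean of its probes Jak2 gave 0.20 in CS against air and was not called.

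The MHC class I presentation genes had a median of 0.19 in CS. Of 17 tested, 2 rose (5.59% of all genes), H2-D1 by 0.40 (limma adjusted p = 0.0141) and H2-T23 by 0.42 (0.0202). They are a classical and a non-classical class I heavy chain. In all, 12 changes were positive and 5 negative, down to -0.34 (Pdia3), with none called lower. At an unadjusted p under 0.05 in limma 8 were higher and 3 lower, together 11 of 17 (31.2% of all genes in either direction). H2-D1 was 5.88, 5.89 and 5.72 in air, 6.18, 6.29 and 6.23 in CS, and 6.01, 5.97 and 6.08 in IQOS, with the 3 groups apart. Leaving out air 1 or CS 2 lost the H2-D1 call, and leaving out air 1, air 3 or CS 2 that of H2-T23. In IQOS against air 1 of the 17 was called lower (0.886% of all genes). It was the oxidoreductase Pdia3, part of the peptide-loading complex, which fell by 0.58 (limma adjusted p = 0.0223). That call was kept in 5 of 9 fits with 1 array left out.

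Markers of immune cells moved with the exposures too. Over all genes 5.59% were called higher and 6.12% lower in CS against air. Of 11 neutrophil markers, 4 rose in CS (Cd177, Il1r2, Clec4d and Trem1), and their summed level was 186.6 to 234.2 times the percentile in air, 344.5 to 772 in CS and 178.5 to 442.2 in IQOS. By array the neutrophil sum was 344.5, 553.6 and 772 on CS 1 to 3. Its highest CS array was CS 3, and that of the members was CS 2. Its lowest was CS 1, which was also lowest for 20 of 25 type I genes and 3 of 9 interferon-gamma genes. Among the IQOS arrays, IQOS 2 was lowest for the neutrophil sum and for 19 of 25 type I and 6 of 9 interferon-gamma genes. The highest IQOS sum was on IQOS 1 (442.2), while IQOS 3 (437.9) was highest for 22 of 25 and 7 of 9. In air the lowest sum was on air 1 (186.6), the array highest for 8 of 9 interferon-gamma and 11 of 25 type I genes. Of 12 alveolar macrophage markers 5 rose in CS (summed level 153.4 to 179.4 in air, 285 to 368.6 in CS, 173.1 to 198.6 in IQOS). Of the other alveolar macrophage markers 5 had negative changes, down to -0.92 (Fabp4) and with every CS array below air for Fabp4 and Cidec, none called. Of 12 monocyte and interstitial macrophage markers 3 rose (148.1 to 164.8, 174.7 to 216.7 and 165.3 to 183.6). Of 11 B cell markers 3 fell in CS (30.38 to 51.62 in air, 28.57 to 39.11 in CS).

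Markers of cells known to make interferons were read the same way. Over all genes 6.12% were called lower in CS against air, 1.99% higher in IQOS against air and 4.94% higher in IQOS against CS. For 12 natural killer cell markers none was called in CS against air in limma. At an unadjusted p under 0.05 there were 2 (31.2% of all genes). Their summed level, over all 12, was 23.17 to 29.86 in air, 21.43 to 30.23 in CS and 16.6 to 32.09 in IQOS. The 11 T cell markers summed to 16.5 to 18.5 in air, 15.76 to 22.43 in CS and 20.24 to 29.17 in IQOS. Of them 1 was called higher in IQOS against air (Cd4), and 1 was called higher in IQOS against CS. The 10 plasmacytoid dendritic cell markers, of which Bst2 is also a member here, summed to 285.2 to 290.4, 254.6 to 282.3 and 274.8 to 285.6, and 1 fell in CS (Ly6d). In IQOS, 1 rose against air (Pacsin1) and 3 were higher than in CS (Spib, Klk1 and Pacsin1). The part of cell makeup in the changes of interferon genes was not tested.

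**Figure D5:**
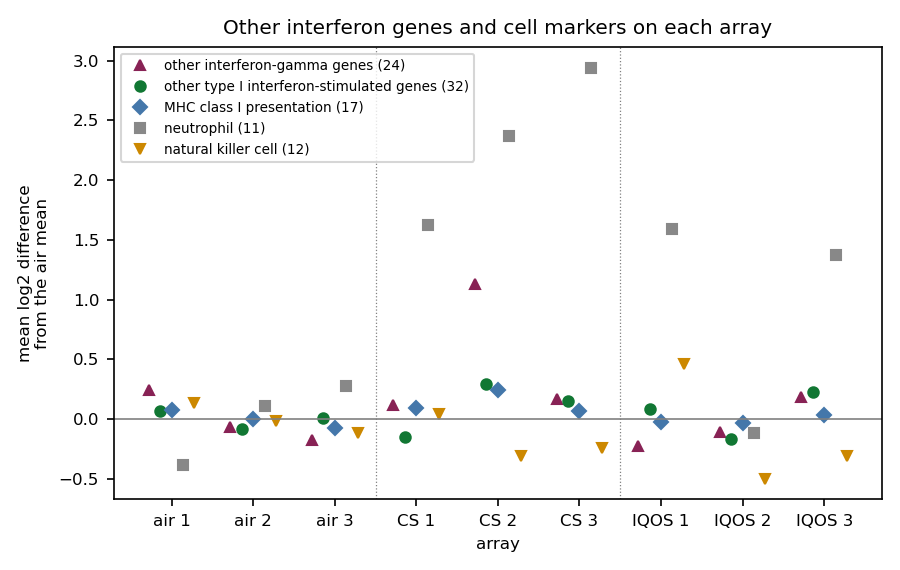
Mean log2 difference from the air mean on each array for other interferon-gamma targets, other type I targets, MHC class I genes, neutrophil markers and natural killer cell markers; numbers in the key are probes in each mean. The interferon-gamma list stands out on CS 2 (1.13), and the neutrophil markers are highest on CS 3 (2.94).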

How the data were processed

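RNA of 9 whole-lung samples was hybridised to 1-colour Agilent arrays and scanned; per the labels, the processed signal, a background-subtracted intensity, came from Agilent Feature Extraction 10.7.1.1, and the authors deposited it with median spot and background intensity and flags. The series matrix ratio values, deposited by the authors with scale and centring unstated (column medians 0.115 to 0.122), followed each array's processed signal over its 75th percentile on a linear scale and served as an alternative. Here log2 intensity minus each array's 75th percentile was averaged over spots of a probe, without control spots, and 37258 probes above background on every measured array of a group, with values on at least 2 arrays of each, were fitted with limma 3.58.1 in R 4.3.3 over all 9 arrays. Accessions gave 58.3% of probes a symbol. The members and gene lists were chosen with earlier results of these data known. Members that were called, or whose air and CS arrays did not overlap, are given on every array; from each wider list up to 4 called genes per comparison are named. The fit was tested on simulated data. Alternatives changed background correction, scaling, filter, covariates, probes and arrays used. The number of arrays limits precision. Probes for related Ifit, Oas and Gbp genes were not checked for cross-hybridisation. Promoters are RefSeq windows of GRCm38.p6.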

Additional observations from a re-analysis of the deposited data

Results flagged for a closer look

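Among the 34 members and the genes named from the wider lists, the exposures lay on opposite sides of air for 2. The share of all genes doing so was not counted. Of all genes, 17.2% had every CS array above air and 21% below. For IQOS against air these shares were 13% and 15.1%. For Slfn9 every CS array was below and every IQOS array above the air arrays (-0.25, and 0.25 with limma adjusted p = 0.0759, not called), and IQOS against CS gave 0.505 (limma adjusted p = 0.00577). This rests on 1 of its probes: with their mean the changes were -0.036 in CS and 0.063 in IQOS, and IQOS against CS gave 0.099, none called. Array row as a covariate also ended its calls. For Il10rb every CS array was above and every IQOS array below air (0.16 and -0.11, neither called), and IQOS against CS gave -0.272 (limma adjusted p = 0.0418).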

How the results depend on the processing

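Direction never reversed for the called members. In CS against air the count of 3 called members became 1 (Ifit2) with no filter on dim probes and 0 with array row as a covariate, which with 1 air array in row 2 leaves little to separate row from exposure. In IQOS against CS the count of 0 became 1 with normexp background correction (Ifit3) and 1 with an intensity trend and robust eBayes (Irf1), and 4 at an adjusted p under 0.1 (Herc6, Ifit3, Irf1 and Usp18). In IQOS against air it became 1 at an adjusted p under 0.1 (Ifit2). Leaving out 1 array at a time gave 1 to 4 calls in CS against air, 0 to 1 in IQOS against air and 0 to 1 in IQOS against CS. The type I minus interferon-gamma difference then ran from -0.491 to -0.1, from 0.02 to 0.202 and from 0.145 to 0.333. Without CS 2 and IQOS 3 together, a setting chosen after seeing the data, that difference was -0.1 in CS against air, and 1 member was called in IQOS against CS (Ifi44). Over the 12 alternatives other than arrays left out in turn, of which 1 fits only the groups compared, Ifit2 was called in 11, Irf1 in 9 and Oasl1 in 6; the cause was not tested. Correlations of same-numbered arrays, after each group's mean was subtracted from every probe, ran from -0.078 to 0.2, with 4 of 9 over 0.1. They were not set against other pairs of arrays, so they cannot settle whether replicate numbers pair the samples. With the replicate number as a block 2 members were called in CS against air (Ifit2 and Irf1), 0 in IQOS against air and 0 in IQOS against CS. Other scalings shifted the median of all probes by at most 0.033.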

Other observations

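A second probe was on the array for 11 of the 34 genes. For Irf1 it gave 0.49 in CS against air (limma adjusted p = 0.0572) and for Oasl1 0.83 (adjusted p = 0.0651), in the same direction as the chosen probes but outside the threshold. For Zbp1 the second probe gave 0.84 and for Tap1 0.48. The 2 probes disagreed in sign in CS against air for Ifi27l2a, Xaf1 and Parp14, and in IQOS against air for Rsad2, Ifi27l2a, Xaf1 and Tap1. Ifi27l2a differed most in CS against air, with -0.52 for the brighter and 1.05 ± 0.68 (SE, n = 3 per group) for the dimmer probe in CS against air, neither called.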
